A study of Mus musculus with 2 samples.

Results

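The nuclear genes for the subunits of the mitochondrial respiratory chain and the ATP synthase were compared between leukemic stem cells (LSCs) of wild-type (WT) and STAP-1 knockout (KO) origin. Members were the rows whose symbol starts with Ndufa, Ndufb, Ndufc, Ndufs or Ndufv and a number, with Cox4 to Cox8 and a letter, with Uqcr or with Atp5, together with Sdha, Sdhb, Sdhc, Sdhd and Cyc1. This rule took 86 of the 23284 genes listed. By their known roles, 35 belong to complex I, 4 to complex II, 9 to complex III, 11 to complex IV and 15 to complex V. A further 7 are forms of complex IV subunits made mainly in other tissues, and 5 match by name but encode no subunit of these complexes. The gene for the complex IV subunit Ndufa4, which carries a complex I name, was counted with complex IV.

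Complex I (NADH dehydrogenase) and complex II (succinate dehydrogenase) pass electrons to ubiquinone, complex III (cytochrome bc1) passes them on to cytochrome c, and complex IV (cytochrome c oxidase) hands them to oxygen. Complexes I, III and IV pump protons across the inner mitochondrial membrane, and complex V, the ATP synthase, uses the gradient to make ATP. Most subunits are encoded in the nucleus by short, highly expressed genes, whereas the mitochondrial genome encodes the rest. Normal hematopoietic stem cells are known to rely largely on glycolysis at rest, and stem cells of chronic myeloid leukemia (CML) are known for their use of oxidative phosphorylation.

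The cells came from a retroviral mouse model of CML. LSK cells (lineage-negative, Sca-1+ c-Kit+ bone marrow cells) of WT or STAP-1 KO donors on the C57BL/6J background were transduced with human BCR-ABL and green fluorescent protein (GFP) and transplanted into lethally irradiated C57BL/6SJL recipients with support marrow. The STAP-1 KO donors carry a targeted disruption of the Stap1 locus, which encodes a signal-transducing adapter protein, while BCR-ABL and GFP were present in both groups. The mice used were 8 to 14 weeks old, and the donor-derived leukemic cells were sorted on day 11 of the first transplant as LSK cells positive for GFP and CD45.2. Whether cells of several recipients were pooled is not given in the sources used here. There was 1 library per genotype, so no p-value can be given and every difference below is between single libraries.

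RNA was amplified with a low-input full-length cDNA kit, and the values are FPKM (fragment numbers divided by a transcript length and by mapped fragments). The length used fitted best as transcript length less 212 bases in WT and 208 bases in STAP-1 KO. Levels of the shortest genes, set against those of longer ones, therefore depend strongly on the bases taken off. The targeted gene Stap1 had 62.0 FPKM in WT and 0.309 FPKM in STAP-1 KO. The steps between low values corresponded to an effective depth of 7500000 reads in WT and 10470000 in STAP-1 KO. At 787 bases, the median RefSeq-linked transcript length of all 86 members, 3 reads were then worth 0.696 and 0.495 FPKM. Estimated reads were at least 100 in both libraries for 73 members, with medians of 843.5 (WT) and 1879 (STAP-1 KO). Gene positions are those of GENCODE M21 on GRCm38. Intervals below are exact 95% binomial intervals on estimated reads and cover counting error only.

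The libraries also differed in markers of blood cell types, and in the genes of the sorting gate. The 11 markers of mast cells and basophils, Kit among them, all had less than 0.5 of their WT level in STAP-1 KO, at a median log2 ratio (STAP-1 KO to WT) of -3.34. Their summed FPKM was 52268 in WT and 5305 in STAP-1 KO, which is 8.05% and 0.878% of the FPKM of all genes. All 5 markers of neutrophil primary granules were higher by at least 2-fold, with sums of 564 and 4623 FPKM. Of all genes averaging 1 FPKM or more, 22.2% were at least 2-fold lower and 11.5% at least 2-fold higher. Of the LSK genes, Kit was listed at 468 and 30.1 FPKM, Ly6a (Sca-1) at 285 and 106 FPKM and Cd34 at 281 and 194 FPKM. The 5 erythroid markers listed had sums of 993 and 573 FPKM and a median log2 ratio of -0.01, with the near-identical genes Hba-a1 at 34.8 and 380 FPKM and Hba-a2 at 773 and 15.9 FPKM. Of 5 eosinophil markers 4 averaged 1 FPKM or more, 3 higher and 1 lower, with sums of 10.05 and 75.6 FPKM. Of the 3 higher ones, Ear1 (0 FPKM in WT and 2.46 FPKM in STAP-1 KO) reached that mean only through STAP-1 KO. Of 6 B lymphoid markers only Cd79b averaged 1 FPKM or more, with Ebf1 at 0 in both libraries. The part of these markers in the ratios given below was not tested.

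The promoters of these genes are known for sites of NRF-1, of the GA-binding ETS factor GABP (also called NRF-2), of YY1 and, in fewer genes, of CREB. Promoter windows from 250 bases before to 50 bases after the transcription start were given by RefSeq (GRCm38.p6) for 67 of the 86 members, in 73 windows. For each complex the window with the most kinds of these sites, then with the most matches, then first by symbol, is printed from 5′ to 3′ along the gene, to show how such sites lie near the start. Ndufs6 tied with Ndufa11, and Atp5j and Atp5k with Atp5h, and the windows of Ndufs6 and Atp5j hold a YY1 site. Capitals mark matches on either strand to the NRF-1 letters GCGCANGCGC, the ETS letters CCGGAAG and the CRE letters TGACGTCA, and a site that matches on both strands was counted once. The windows are those of Ndufa11 (complex I, chr17:56717512-56717811, plus strand), Sdhd (complex II, chr9:50603800-50604099, minus strand), Uqcrc1 (complex III, chr9:108936398-108936697, plus strand), Cox6a1 (complex IV, chr5:115348909-115349208, minus strand) and Atp5h (complex V, chr11:115419870-115420169, minus strand).

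Ndufa11 promoter: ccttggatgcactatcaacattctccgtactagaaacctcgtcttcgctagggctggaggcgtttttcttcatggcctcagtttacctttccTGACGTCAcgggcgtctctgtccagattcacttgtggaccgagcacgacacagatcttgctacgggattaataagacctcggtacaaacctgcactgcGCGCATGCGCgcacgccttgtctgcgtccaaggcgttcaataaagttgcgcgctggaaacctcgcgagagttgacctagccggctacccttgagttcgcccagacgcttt
Sdhd promoter: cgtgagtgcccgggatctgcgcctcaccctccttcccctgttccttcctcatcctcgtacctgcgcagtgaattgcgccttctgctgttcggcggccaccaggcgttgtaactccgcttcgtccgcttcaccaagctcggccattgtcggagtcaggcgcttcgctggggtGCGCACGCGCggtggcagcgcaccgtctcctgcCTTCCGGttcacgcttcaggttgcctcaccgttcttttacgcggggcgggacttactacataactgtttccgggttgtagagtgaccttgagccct
Uqcrc1 promoter: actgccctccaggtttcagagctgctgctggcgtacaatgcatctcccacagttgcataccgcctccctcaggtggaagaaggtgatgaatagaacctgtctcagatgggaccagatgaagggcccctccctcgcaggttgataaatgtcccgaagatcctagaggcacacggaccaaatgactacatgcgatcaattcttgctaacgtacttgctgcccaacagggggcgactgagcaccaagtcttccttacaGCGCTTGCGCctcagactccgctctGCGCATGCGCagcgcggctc
Cox6a1 promoter: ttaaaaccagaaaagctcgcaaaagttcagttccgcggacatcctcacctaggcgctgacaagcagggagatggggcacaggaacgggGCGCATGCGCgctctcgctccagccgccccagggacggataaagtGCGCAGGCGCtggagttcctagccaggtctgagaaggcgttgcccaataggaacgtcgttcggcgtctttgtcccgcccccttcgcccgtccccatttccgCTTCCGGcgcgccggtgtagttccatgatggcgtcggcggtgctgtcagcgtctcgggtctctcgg
Atp5h promoter: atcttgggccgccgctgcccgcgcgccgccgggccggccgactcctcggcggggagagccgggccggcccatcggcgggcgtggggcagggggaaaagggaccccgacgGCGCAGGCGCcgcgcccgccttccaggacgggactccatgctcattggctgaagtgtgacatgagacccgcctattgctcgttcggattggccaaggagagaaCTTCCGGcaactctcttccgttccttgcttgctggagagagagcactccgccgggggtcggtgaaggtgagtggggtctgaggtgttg

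Of the 73 windows of members, 18 (24.7%) held the NRF-1 letters, against 4.6% of all 32851 RefSeq windows and 10.3% of the windows of other genes that averaged 1 FPKM or more. The ETS letters were in 21.9% of the members' windows, 8.86% of all and 18.8% of those of the other expressed genes. The YY1 letters AAGATGGC were in 15.1%, 2.75% and 4.66%, and the CRE letters in 5.48%, 1.79% and 3.08%, respectively. At least 1 of the 4 was present in 57.5% of the members' windows, and in 32% of those of the other expressed genes. By complex, NRF-1 letters were in 8 of 33 windows of complex I, 2 of 3 of complex II, 1 of 5 of complex III, 1 of 9 of complex IV and 6 of 16 of complex V. None of the 4 windows of tissue forms of complex IV held any of the 4 motifs. A match of letters is a description of the sequence and does not show a bound factor.

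Nearly all members were listed at a higher value in STAP-1 KO, by similar and modest factors. A gene passed the filter on low values at 1 FPKM or more in the mean of both libraries. This took 80 of the 86 members, and 78 of these were higher in STAP-1 KO, where 48.3% of all 10974 genes that passed were. The 6 that did not pass were Ndufs5, Atp5g2, Cox7b2, Cox8b, Cox8c and Ndufa4l2. The median log2 ratio, log2((STAP-1 KO + 0.1)/(WT + 0.1)), was 0.62 for the members, with an interquartile range of 0.42 to 0.81, and -0.04 for all genes, with an interquartile range of -0.88 to 0.59. At a 2-fold cut-off, the one the study used, 6 members were higher (Ndufc1, Ndufa5, Cyc1, Atp5k, Cox4i2 and Cox6a2), where 11.5% of all genes were, and 1 was lower (Cox7a1), where 22.2% of all genes were. Most members thus lay on the same side at less than 2-fold. With both libraries scaled to the same median, 22 members were at least 2-fold higher, where 17.8% of all genes were. The counting interval of the ratio lay above 1 for 71 of the 80 members, included 1 for 7 and lay below 1 for 2. The same count was not made over all genes, so it cannot set the members apart. In total RNA of sorted cells, fewer cells of a type and less RNA per cell cannot be told apart.

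The members kept much the same order of levels in both libraries. Across the 80 members the correlation of log2 FPKM between the libraries was 0.948 (Pearson) and 0.968 (Spearman, on FPKM), a description across genes of 2 libraries made and scaled in the same way. Atp5b, the catalytic beta subunit of the ATP synthase, was the highest member in both libraries, at 1269 FPKM in WT and 1954 FPKM in STAP-1 KO. Atp5g3, which encodes the c subunit of the rotor ring, was next in both, at 686 and 1201 FPKM. In the WT library 36 members were above 200 FPKM and 7 were above 500 FPKM, and in STAP-1 KO 53 and 17 were. The members' share of the summed FPKM of all genes was 2.84% in WT and 4.6% in STAP-1 KO.

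**Figure D1:**
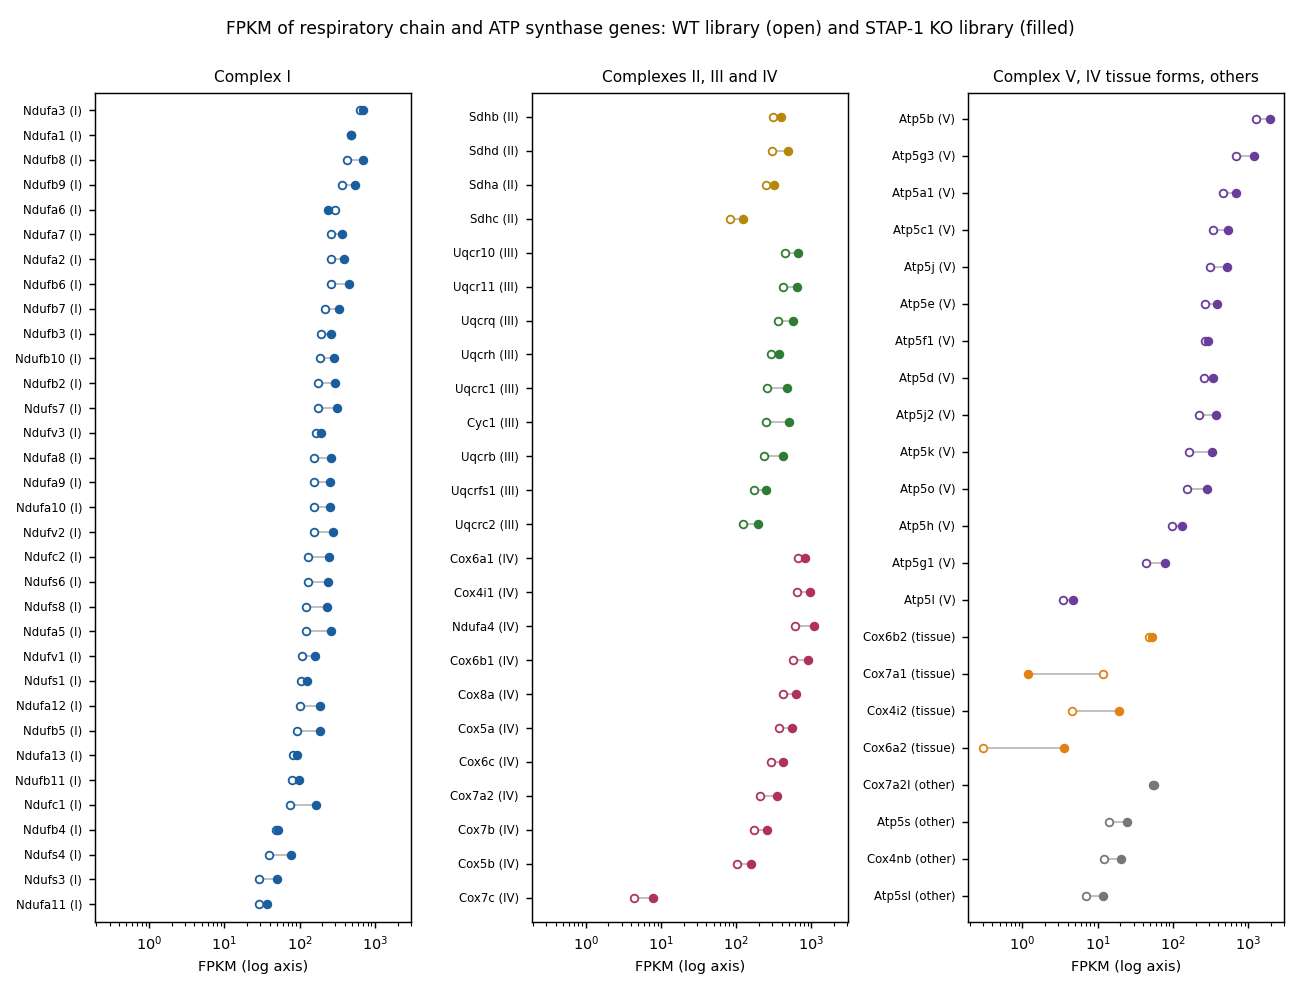
FPKM (log axis) of 79 members that passed, in the WT library (open circles) and the STAP-1 KO library (filled circles), by complex. The filled circle lies to the right for all but 2 of them, the exceptions being Ndufa6 and Cox7a1, and the gap is widest for the tissue forms Cox6a2, Cox7a1 and Cox4i2.

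Transcript length has to be kept in view, because the log2 ratio of all genes varied with it. Across 10865 genes with a matched annotation, the Spearman correlation of log2 ratio and length of the longest annotated transcript was -0.37. The median log2 ratio was 0.48 in the shortest of 20 length bins (up to 957 bases) and -0.998 in the longest (from 7752 bases). The members have short transcripts, with a median of 1135 bases against 3218 bases for all genes, and 34 of the 80 were in the shortest bin and 64 in the 5 shortest bins (up to 2081 bases). For the 2653 other genes of these 5 bins the median was 0.44 on the log2 scale and 66.6% were higher in STAP-1 KO. Of the 2653, 21.9% were at least 2-fold higher and 14.5% at least 2-fold lower. Among the 1015 of them with a mean of at least 50 FPKM, nearer to the members' own level, the median was 0.48, 72% were higher, 19.9% at least 2-fold higher and 12% at least 2-fold lower.

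When the median of each gene's length bin was subtracted, the members' median fell to 0.25, and 62 of 80 members were above 0, against 49.9% of all genes. With length taken from transcripts linked to RefSeq, where the median of the 80 members was 849.5 bases, the matched median was 0.20, and with the median length of a gene's transcripts it was 0.44. Among the members themselves the Spearman correlation of log2 ratio and length was 0.05 over 80 genes. Most members lie in the 5 shortest bins, where the medians of all genes ran only from 0.39 to 0.52. The correlation among members therefore says little about whether they share the dependence on length. The 16 members in the longer bins had a median log2 ratio of 0.66, close to the 0.62 of the 64 members in the 5 shortest bins, and their matched medians were 0.49 and 0.18. Several of the 16 have a longest annotated transcript far longer than the RefSeq-linked one. Examples are Ndufb2 (4371 bases against 455 in the RefSeq-linked transcript), Ndufb7 (4435 and 623), Cox6c (3038 and 503) and Atp5l (6310 and 544). The median RefSeq-linked length of the 16 was 1897.5 bases, and their median matched on that length was 0.36. What the dependence on length comes from was not tested.

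**Figure D2:**
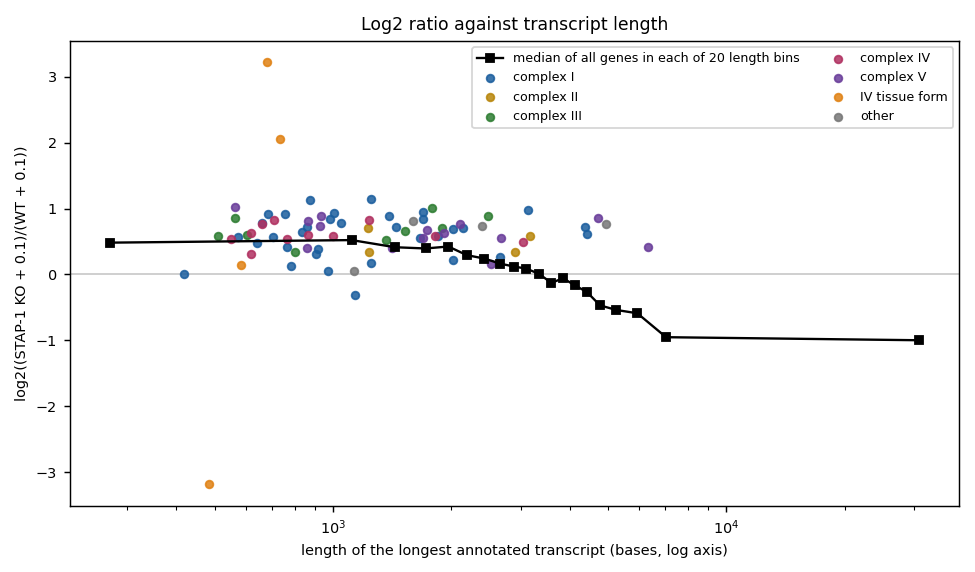
Log2 ratio of STAP-1 KO to WT FPKM against the length of the longest annotated transcript (bases, log axis), for the 80 members that passed (circles, coloured by complex) and as the median of all genes in each of 20 length bins (black squares). The medians run from 0.48 in the shortest bin to -0.998 in the longest, while the members' median is 0.62 in the 5 shortest bins and 0.66 in the longer ones, where the 16 members have a median RefSeq-linked length of 1897.5 bases.

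The 5 complexes had similar ratios. The median log2 ratio was 0.67 for complex I (34 genes), 0.46 for complex II (4), 0.66 for complex III (9), 0.59 for complex IV (11) and 0.65 for complex V (14). The summed FPKM went from 6174 to 9021 in complex I (1.46-fold), from 934 to 1310 in complex II (1.40-fold), from 2550 to 4082 in complex III (1.60-fold), from 4064 to 6094 in complex IV (1.5-fold) and from 4534 to 7116 in complex V (1.57-fold). After matching on length the medians were 0.25, 0.20, 0.25, 0.14 and 0.30 for complexes I to V, so the order of the complexes differed between the measures. The SD across the subunits of a complex was 0.15 to 0.34 on the log2 scale, larger than most of the gaps between complexes. Of the 72 subunits of complexes I to V that passed, 71 were higher in STAP-1 KO, 4 by at least 2-fold, and none was lower by 2-fold, against 48.3%, 11.5% and 22.2% of all genes.

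**Figure D3:**
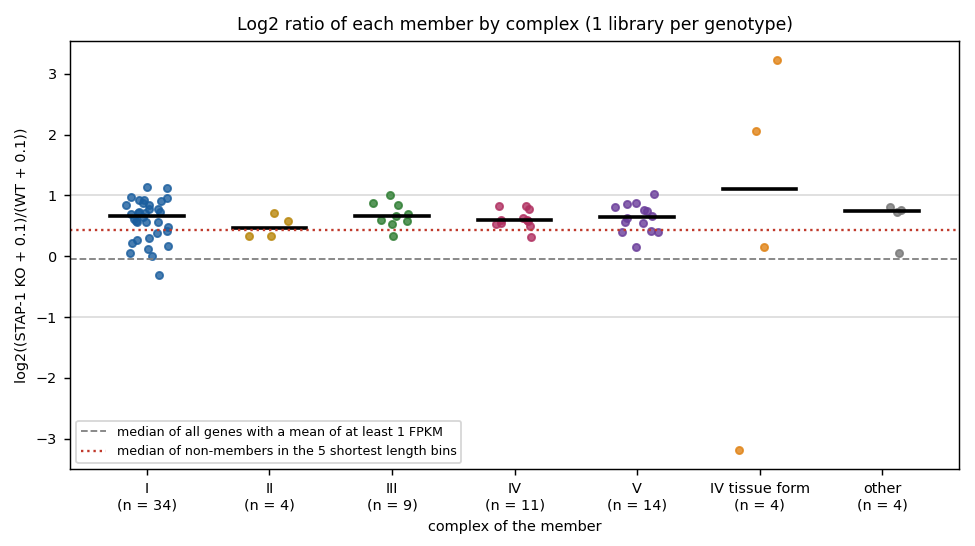
Log2 ratio of each member that passed (points) by complex, with the median of each group (black bars), the median of all genes (dashed, -0.04) and the median of the other genes in the 5 shortest length bins (dotted, 0.44). The medians of complexes I to V lie between 0.46 and 0.67, and the 4 tissue forms of complex IV range from -3.19 to 3.23.

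Complex I was represented by 35 genes, of which Ndufs5 did not pass. All 7 catalytic subunits of the hydrophilic arm, which carry the flavin and the iron-sulfur clusters, were higher in STAP-1 KO, with a median log2 ratio of 0.78. Ndufs8 was listed at 122 FPKM in WT and 232 FPKM in STAP-1 KO, a 1.90-fold difference. Ndufv2 was listed at 154 and 278 FPKM (1.80-fold), and Ndufs7 at 173 and 312 FPKM (1.80-fold). Ndufs3 was lower in level, at 29.0 and 49.7 FPKM (1.72-fold), and has a near-identical copy over 75.7% of its transcript, so that reads may be shared.

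Other catalytic subunits differed less between the libraries. Ndufv1, the NADH-binding subunit, was listed at 108 and 160 FPKM (1.47-fold). Ndufs1, the largest subunit, had the smallest ratio of the 7, at 103 and 124 FPKM (1.20-fold, counting interval 1.14 to 1.27). After matching on length all 7 remained above 0, with a median of 0.26.

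The accessory subunits of complex I, which support assembly and stability, held both the largest and the smallest ratios of the complex. Of 27 that passed, 26 were higher, and their median log2 ratio was 0.65. Ndufc1 (chr3:51404677-51408988), a small membrane subunit, was listed at 75.1 FPKM in WT and 166 FPKM in STAP-1 KO, 2.21-fold with a counting interval of 1.64 to 3.02. Ndufa5 (chr6:24518666-24528013) was listed at 120 and 262 FPKM (2.18-fold, interval 1.99 to 2.40), and Ndufb5 came next at 93.4 and 184 FPKM (1.97-fold). These were the largest ratios of the complex, and Ndufs4, a subunit needed for assembly of the NADH-oxidizing module, followed at 39.2 and 76.1 FPKM (1.94-fold).

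At the other end, Ndufa6 (chr15:82350140-82354322), an accessory subunit of the LYR family, was the only subunit of complexes I to V that was lower in STAP-1 KO. It was listed at 298 FPKM in WT and 241 FPKM in STAP-1 KO, 0.808-fold with a counting interval of 0.736 to 0.887. With both libraries scaled to the same 75th percentile, 77 of 80 members were higher, since Ndufa1 then fell on the lower side too. Ndufa1, an X-linked assembly subunit, was listed at 480 and 485 FPKM, and its interval of 0.917 to 1.11 included 1. Ndufb4, with a copy over 40.2% of its transcript, was listed at 48.8 and 50.9 FPKM (interval 0.893 to 1.22). The difference in these last 2 genes was not detectable at this depth. Ndufa3, the most abundant subunit of complex I by FPKM, was listed at 643 and 702 FPKM (1.09-fold), and Ndufa13, also known as Grim19, at 82.8 and 93.1 FPKM (1.13-fold).

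By name series, the Ndufa genes had the lowest medians and the widest spread within complex I. The 12 Ndufa genes had a median log2 ratio of 0.52 and an SD of 0.41, and after matching on length their median was 0.04. The 10 Ndufb genes had a median of 0.63 (matched 0.23), the 7 Ndufs genes that passed 0.85 (matched 0.32), and the 3 Ndufv genes 0.56 (matched 0.16). Both Ndufc genes were high, with Ndufc2 at 131 FPKM in WT and 247 FPKM in STAP-1 KO (1.89-fold). The other subunits of complex I not named here lay between 1.16-fold for Ndufv3 and 1.88-fold for Ndufs6.

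Complex II, which also acts in the TCA cycle, was represented by its full set of 4 genes, all higher in STAP-1 KO. The flavoprotein Sdha was listed at 250 FPKM in WT and 317 FPKM in STAP-1 KO, and the iron-sulfur subunit Sdhb at 307 and 388 FPKM, both 1.27-fold. The membrane anchors differed more, Sdhc at 82.4 and 124 FPKM (1.5-fold) and Sdhd at 295 and 481 FPKM (1.63-fold). The catalytic genes thus had lower ratios than both anchors. After matching on length this order did not hold, since Sdha was at 0.22, Sdhb at -0.18, Sdhc at 0.50 and Sdhd at 0.18.

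Complex III had the largest fold of summed FPKM. Cyc1 (chr15:76343523-76346260), the cytochrome c1 that gives electrons to cytochrome c, was listed at 249 FPKM in WT and 499.9 FPKM in STAP-1 KO, 2.01-fold with an interval of 1.92 to 2.11, which is just past the cut-off. The Rieske iron-sulfur protein Uqcrfs1, the other nuclear-encoded catalytic subunit, was listed at 172 and 247 FPKM (1.44-fold). Of the core proteins, Uqcrc1 was listed at 256 and 472 FPKM (1.85-fold) and Uqcrc2 at 121 and 197 FPKM (1.63-fold). The catalytic and core genes thus spanned 1.44-fold to 2.01-fold.

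The small subunits of complex III were higher in level than its catalytic subunits in most cases. Uqcr10 was listed at 447 and 670 FPKM (1.5-fold), Uqcr11 at 420 and 634 FPKM (1.51-fold) and Uqcrq at 360 and 570 FPKM (1.58-fold). Uqcrb, which lies near the quinone site and has a copy over 62.8% of its transcript, was listed at 235 and 424 FPKM (1.80-fold). The hinge protein gene Uqcrh had the smallest ratio of the complex, at 291 and 368 FPKM (1.27-fold).

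The widely made nuclear subunits of complex IV were the most uniform, with all 11 between 1.24-fold and 1.79-fold higher and an SD of 0.15 on the log2 scale. Ndufa4 was listed at 611 FPKM in WT and 1086 FPKM in STAP-1 KO (1.78-fold) and moved from the sixth to the third highest member. Cox4i1, a regulatory subunit, was listed at 645 and 942 FPKM (1.46-fold), and Cox6b1, which links the monomers of the enzyme, at 576 and 888 FPKM (1.54-fold). Cox6a1 had the smallest ratio, at 663 and 823 FPKM (1.24-fold). Cox7a2 was listed at 204 and 349 FPKM (1.71-fold), and Cox5a, Cox5b, Cox6c, Cox7b and Cox8a lay between 1.41-fold and 1.52-fold. After matching on length the complex had the lowest median of the 5, at 0.14, with 10 of 11 genes above 0.

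Complex V consists of the catalytic F1 part, the membrane part with the c-ring, and the stalks that join them. In F1, the catalytic pair Atp5b and Atp5a1 were 1.54-fold and 1.47-fold higher, Atp5a1 at 463 FPKM in WT and 682 FPKM in STAP-1 KO. The subunits of the central stalk, Atp5c1 (338 and 537 FPKM), Atp5d (256 and 339 FPKM) and Atp5e (265 and 388 FPKM), were 1.59-fold, 1.33-fold and 1.46-fold higher. All 5 F1 genes were thus within a narrow band.

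The peripheral stalk and membrane subunits covered a wider range. Atp5k (chr5:108433244-108434448), the e subunit at the dimer interface, was listed at 165 FPKM in WT and 336 FPKM in STAP-1 KO, 2.03-fold with an interval of 1.73 to 2.40. Atp5o was listed at 152 and 280 FPKM (1.85-fold) and has a copy over 76.7% of its transcript. Atp5j and Atp5j2 were 1.67-fold and 1.70-fold higher. Atp5f1, the b subunit of the stator, had the smallest ratio of the complex at 265 and 294 FPKM (1.11-fold, interval 1.06 to 1.17), followed by Atp5h at 98.8 and 131 FPKM (1.32-fold).

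The c-ring is encoded by 3 genes for the same mature protein. Atp5g3 provided 94.0% of their summed FPKM in WT and 93.8% in STAP-1 KO. Atp5g1 was listed at 43.7 and 79.5 FPKM, which is 5.99% and 6.21% of the sum. Atp5g2 was listed at 0 in both libraries, but 88.2% of its transcript is covered by near-identical copies, and its level is therefore uncertain.

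Of the 4 forms of complex IV subunits made mainly in other tissues that passed, Cox4i2, Cox6a2 and Cox7a1 had the largest listed ratios of the members, on few reads. The counting intervals of Cox4i2 and Cox6a2 overlapped that of Ndufc1. Cox4i2 (chr2:152754173-152765037), the form of lung and of oxygen-sensing cells, was listed at 4.63 FPKM in WT and 19.5 FPKM in STAP-1 KO. This corresponded to an estimated 17.9 and 106 reads, and to a 4.19-fold difference with an interval of 2.53 to 7.33. Its share of the FPKM of Cox4i1 and Cox4i2 was 0.712% in WT and 2.03% in STAP-1 KO.

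Cox7a1 (chr7:30184144-30186078), the heart and skeletal muscle form, differed in the opposite direction. It was listed at 11.8 FPKM in WT and 1.21 FPKM in STAP-1 KO, with an estimated 16 and 2.34 reads. The WT value was 11.4-fold higher in rounded reads, with an interval of 2.68 to 102. The share of Cox7a1 in the FPKM of Cox7a2 and Cox7a1 was 5.46% in WT and 0.345% in STAP-1 KO.

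Cox6a2 (chr7:128205435-128206387), also a heart and muscle form, was listed at 0.296 FPKM in WT and 3.60 FPKM in STAP-1 KO. It passed only through the STAP-1 KO library. With an estimated 1.04 and 17.8 reads its ratio was 12.8, with an interval of 2.02 to 533, and it made up 0.0446% and 0.436% of the FPKM of Cox6a1 and Cox6a2. Cox6b2, the testis form, was the most abundant of the tissue forms, at 48.5 and 53.6 FPKM, and its interval of 0.887 to 1.38 included 1. Cox7b2, Cox8b and Cox8c were listed at 0 in both libraries. The widely made partner held at least 92.2% of each pair in both libraries.

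Of the 74 subunits of complexes I to V, 4 were under 10 FPKM in both libraries, and all 4 have a near-identical copy of 97% identity or more over at least 50% of their transcript. These were Atp5g2 at 0, Ndufs5 at 0.00134 FPKM in WT and 0.00156 FPKM in STAP-1 KO, Atp5l at 3.50 and 4.70 FPKM, and Cox7c at 4.43 and 7.93 FPKM. No subunit without such a copy was listed below 10 FPKM in both libraries. Among the members 8 have such a copy, and the other 4 (Atp5h, Atp5o, Ndufs3 and Uqcrb) were listed between 29.0 and 235 FPKM in WT. The ratios of Atp5l (1.34, interval 0.564 to 3.40) and Cox7c (1.80, interval 0.869 to 4.01) rest on an estimated 8.71 and 10.9 reads in WT. How reads that match several places were assigned is not given in the sources used here.

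Of the 5 genes that match by name only, 4 passed, and all 4 were listed at higher values in STAP-1 KO. Atp5s, listed at 14 and 24.5 FPKM, Cox4nb (now Emc8, of the membrane protein complex of the endoplasmic reticulum), at 12.1 and 20.6 FPKM, and Atp5sl, at 7.03 and 11.7 FPKM, were 1.67-fold to 1.75-fold higher in STAP-1 KO. Cox7a2l, which takes part in supercomplexes of complexes III and IV, was listed at 53.8 and 55.9 FPKM, and its interval of 0.909 to 1.19 included 1. Ndufa4l2, a hypoxia-induced relative of Ndufa4, was listed at 0 in both libraries.

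Members with and without promoter motifs were set side by side. The median log2 ratio was 0.71 for 15 members with NRF-1 letters in a window and 0.62 for 48 without. It was 0.61 for 16 members with ETS letters and 0.67 for 47 without, and 0.75 for 10 members with YY1 letters and 0.59 for 53 without. These gaps were smaller than the interquartile range of the members.

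Genes that act with the complexes were described from lists by name. All 29 assembly factors of the complexes passed, 27 were higher in STAP-1 KO (48.3% of all genes and 66.6% of the non-members in the 5 shortest length bins), and their median log2 ratio was 0.56 (matched 0.28). The largest were Bcs1l, which inserts the Rieske protein into complex III, at 9.38 FPKM in WT and 27.4 FPKM in STAP-1 KO, and Ndufaf2, an assembly factor of complex I, at 31.9 and 82.4 FPKM. Of 16 carriers and partners, such as cytochrome c and the ADP/ATP carriers, 15 were higher, beside the same 48.3% and 66.6%, with a median of 0.61 (matched 0.16). Ndufab1, the acyl carrier protein that is also bound to complex I, was listed at 7.89 and 22.1 FPKM. Both lists thus had medians like that of the members.

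The regulators of mitochondrial genes were more mixed before matching on length. Of 19 that passed, 10 were higher, 4 by at least 2-fold, and 3 were lower by at least 2-fold, with a median of 0.18. Of all genes, 48.3% were higher, 11.5% by at least 2-fold, and 22.2% were at least 2-fold lower. They have long transcripts (median 4153 bases), and after matching 13 of 19 were above 0, where 49.9% of all genes were. Their matched median was 0.22, beside 0.25 for the members. Myc, a transcription factor known to raise mitochondrial and ribosomal genes, was listed at 59.3 FPKM in WT and 169 FPKM in STAP-1 KO. Ssbp1, which binds single-stranded mitochondrial DNA, was listed at 22.2 and 64.1 FPKM, while Polg, the mitochondrial DNA polymerase, was listed at 17.9 and 6.32 FPKM. Ppargc1a, a coactivator of mitochondrial genes, was low in both, at 2.24 and 0.168 FPKM.

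Other sets of genes for large assemblies gave similar or larger medians. The 78 of 86 cytosolic ribosomal protein genes that passed had a median log2 ratio of 0.62, equal to that of the members, and a matched median of 0.19. Of these, 74 were higher, 13 at least 2-fold, and 1 was at least 2-fold lower (48.3%, 11.5% and 22.2% of all genes). Their median was 36.2 FPKM in WT, 3 of the 86 were at 0 in both libraries, and Rps12 (0 and 3.08 FPKM) passed only through STAP-1 KO. Most of these genes are abundant in most cells, so the values of the low ones are uncertain. All 38 of 39 proteasome genes that passed were higher, where 48.3% of all genes and 66.6% of the short non-members were, with a median of 0.76 (matched 0.36). All 75 of 76 mitochondrial ribosomal protein genes that passed, whose products translate the mitochondrial mRNAs, were higher as well, 30 of them at least 2-fold (11.5% of all genes and 21.9% of the non-members in the 5 shortest length bins), with a median of 0.93 (matched 0.65). Examples are Mrps22, at 35.7 FPKM in WT and 93.1 FPKM in STAP-1 KO, and Mrpl42, at 118 and 279 FPKM. The mitochondrial ribosome thus had the largest median of these lists before and after matching. Whether lists differ beyond what separate libraries would give cannot be told with 1 library per genotype.

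**Figure D4:**
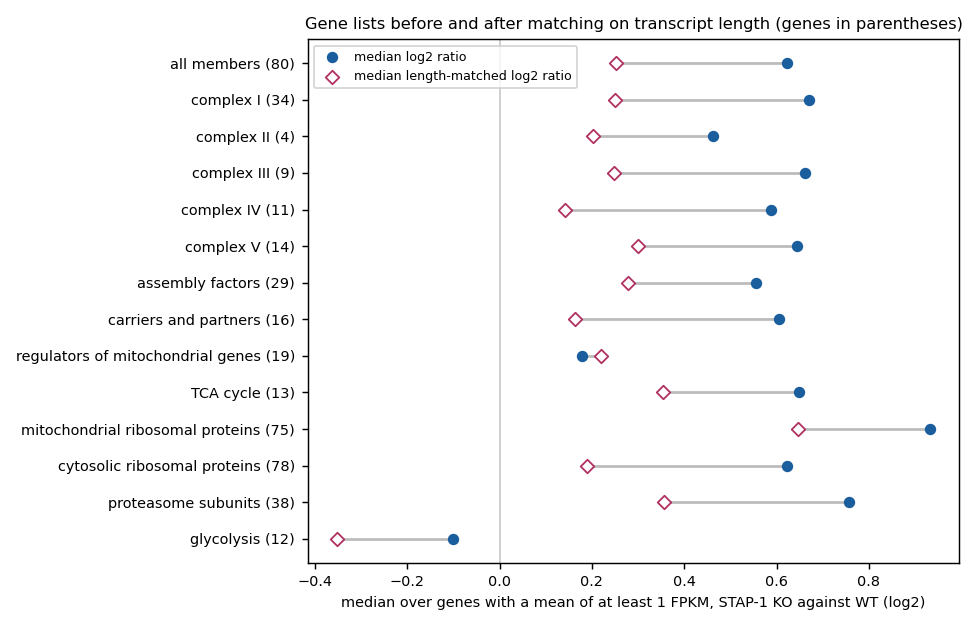
Median log2 ratio of STAP-1 KO to WT (filled circles) and median length-matched log2 ratio (open diamonds) for the members, complexes I to V and other gene lists, with the number of genes that passed in parentheses. Complexes I to V lie between 0.46 and 0.67 before matching and between 0.14 and 0.30 after it, and the mitochondrial ribosomal proteins at 0.93 and 0.65.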

How the data were processed

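RNA-seq was done on CML LSCs, with 1 library per genotype. The authors deposited FPKM values, made from 75-base single reads mapped to mm10 with TopHat2 2.0.13 and Bowtie2 2.2.3 and summarised with Cuffnorm of Cufflinks 2.2.1. The submitters' processing notes name SAMtools 0.1.19, whereas the methods name another version, and the methods and the labels name different kits for RNA extraction. The gene annotation and the counting of multi-mapped reads are not given in the sources used here.

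Ratios were computed on FPKM with a pseudocount of 0.1, which understates the ratio of low genes, over genes whose mean of both libraries was 1 FPKM or more, in Python 3.11.15 with numpy 2.4.6, pandas 2.3.3 and scipy 1.17.1. Symbols were matched to GENCODE M21 (GRCm38), with 20911 matched as written, 1901 through an older symbol and 472 not matched. Of the members, 84 matched as written and 2 through an older symbol. Length matching subtracted the median log2 ratio of 20 bins of equal gene number by longest transcript. Near-identical copies were sought with BLAST 2.17.0 (at least 97% identity over at least 75 bases). Depth was estimated from steps of low FPKM values. Of values under 0.3 FPKM, 49.8% of 301 in WT and 50.7% of 368 in STAP-1 KO were whole reads to within 0.01, where 2% would be by chance, with 212 and 208 bases taken off each transcript. The effective depths may include a scaling by Cuffnorm. Estimated reads are FPKM times transcript length (RefSeq-linked) less these bases times the effective depth. Ratio and matching steps were tested on simulated data.

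Every member could be named. Full values were given for the catalytic subunits of complex I, the extremes of each complex, paralog pairs, and members past the cut-off or at 0. Of the other lists, genes were named among the 4 that differed most when 1 FPKM was the pseudocount, with the exception of Ebf1, Sucla2, Gapdh, Eno1 and Pgk1, which were chosen after their values were seen. The members and lists were chosen with earlier results of these data known, so their direction is not independent evidence. With 1 library per genotype no test was run and there are no within-batch values. Mitochondrially encoded genes were not analysed here. The values of some genes are not reported here, though they are in the counts.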

Additional observations from a re-analysis of the deposited data

How the results depend on the processing

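No paired analysis was possible because there was 1 library per genotype; the labels carry no replicate numbers and the column names carry the number 2 in both. Replicates could not be left out for the same reason. Of the alternative values, 116 stayed, 9 moved and none changed sign. A median stayed if it lay within a 95% interval of the main median, taken from the ranked values of the group's genes. A count stayed if it was within 1.5 times the main count. The interval is over genes, not mice, and for complex II it was the full range of its 4 genes. Scaling both libraries to the same median, which shifts the median of all genes from -0.04 to 0.17, gave medians of 0.84 for all members and 0.88 for complex I and 22 members at least 2-fold higher. Of all genes past the cut-off, 49.1% were then on the higher side, against 34.1% as deposited, with 17.8% of genes at least 2-fold higher and 18.4% at least 2-fold lower. Scaling to the same sum of FPKM gave 0.73 for all members and 11 of 80 members at least 2-fold higher, where 14.5% of all genes were. A 1.5-fold cut-off took 47 members as higher, where 25.3% of all genes were higher and 32.3% lower. With subunits of complexes I to V only, 0 members were at least 2-fold lower. With the median length of a gene's transcripts in place of the longest, the matched medians were 0.44 for all members and 0.48 for complex I. The matched median of all members ranged from 0.20 to 0.44 over its alternatives, and that of complex IV from 0.07 to 0.29. RefSeq-linked lengths, matching among genes of at least 50 FPKM and leaving out the 8 members covered by a copy were added after the data were seen. Single libraries and a few reads behind Cox6a2, Cox7a1, Atp5l and Cox7c limit these values, and counting intervals do not hold the variation between mice.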

Other observations

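The lists for pathways that feed the respiratory chain had different medians in these single libraries. Of 13 genes of the TCA cycle, 10 were higher in STAP-1 KO LSCs, 3 of them by 2-fold or more (48.3% and 11.5% of all genes), with a median log2 ratio of 0.65 (matched 0.35). Suclg2, the beta subunit of the GTP-forming succinyl-CoA synthetase, was listed at 16.4 FPKM in WT and 41.7 FPKM in STAP-1 KO. Fh1, the fumarase, was listed at 66.0 and 137 FPKM, and Suclg1 at 133 and 272 FPKM. Suclg1 encodes the alpha subunit of succinyl-CoA synthetase, and its other beta subunit gene, Sucla2, was listed at 67.2 and 105 FPKM. This enzyme acts directly before succinate dehydrogenase and fumarase directly after it.

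Of 12 genes of glycolysis that passed, 4 were higher and 8 lower, none at least 2-fold higher and 2 at least 2-fold lower (11.5% and 22.2% of all genes), with a median log2 ratio of -0.10 (matched -0.35). The hexokinase gene Hk1 was listed at 167 FPKM in WT and 65.8 FPKM in STAP-1 KO, and the phosphofructokinase gene Pfkp at 127 and 59.9 FPKM. Aldoa, an aldolase, was listed at 1111 and 687 FPKM. Gapdh was listed at 0.391 and 1.03 FPKM and did not pass, and Eno1 and Pgk1 were listed at 9.62 and 19 FPKM in WT. These genes are abundant in most cells, so their values are uncertain and no sum over the list is given. Whether the lists differ beyond the variation between mice cannot be told with 1 library per genotype.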
